A study of Homo sapiens with 12 samples.

Results

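The early transcriptional response of BE(2)-C cells to GRHL1 was read from the first time point of a transfection course, 24 h after plasmid delivery. It rests on 4 of the 12 arrays of the series: the 2 titled GRHL1 24h, from cells given the plasmid pTRex-GRHL1, and the 2 titled empty vector 24h, from cells given pTRex-Dest30. Arrays were assigned by the names in the deposited normalized table, and the deposited scanner table gives these 4 arrays the same names. BE(2)-C is an established human neuroblastoma line, and both groups were grown in serum-containing DMEM and received 2 µg of plasmid by lipid-based transfection. Total RNA was labelled with biotin and hybridised to Illumina BeadChips. The remaining 8 arrays hold the same plasmid pair at 48 and 72 h. They entered the 24 h comparison through the spread of each gene, which was estimated over all 6 groups, and through the filter on dim probes, which counted detection over all 12 arrays. How many cells took up plasmid was not analysed here. In such bulk RNA a strong change in some cells and a weaker one in all cells cannot be told apart. The labels do not say whether the arrays of a group came from separate cultures, and each p-value therefore reflects only how far these samples scattered, which may be technical. The number of arrays limits the precision.

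GRHL1 is a grainyhead-like transcription factor. Proteins of this family bind a short palindromic DNA motif built around the letters AACCGGTT, and in skin and other epithelia they are known for driving genes of cell junctions, desmosomes and barrier formation. Neuroblastoma cells derive from the sympathoadrenal lineage of the neural crest, which is not epithelial. The series title presents GRHL1 as a tumour suppressor in neuroblastoma, so the 24 h comparison addresses which genes move first when the factor is supplied.

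Values are given as normalized intensity units of the probe that stands for each gene. Log2 differences are GRHL1 minus empty vector after background correction and carry limma's moderated standard error (SE). A gene was called where its Benjamini-Hochberg adjusted p was under 0.05 over all 12323 genes tested. A reading at or under 130.9 units was treated as not above background. Where both empty vector arrays lay under that level, the rise is written as at least so many fold in normalized intensity. Those bounds take the mean of log2 values and subtract no background.

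The 4 arrays detected between 17950 and 18942 of 47323 probes. Log2 values correlated across genes with r = 0.992 between the 2 GRHL1 arrays, 0.992 between the 2 empty vector arrays, and 0.989 to 0.991 between the plasmids. Sympathoadrenal identity was checked first, and all 11 markers with a named probe (of 13 listed) were above the limit on all 4 arrays, MYCN, CHGA, STMN2, DBH and ISL1 among them. Their summed intensity was 73810 and 73533 in GRHL1 cells, against 75026 and 73668 in empty vector cells. Of 9 epithelial markers with a probe only KRT19 was above the limit on all 4 arrays, while KRT5, KRT14, KRT8, KRT18, SFN, KLF5 and CDH1 were at background on every one. The summed epithelial markers read 1087 and 1103 in GRHL1 cells, against 1005 and 1054 in empty vector cells. Of 7 Schwann and glial markers none was above the limit on all 4 arrays, and SOX10 and S100B were at background throughout. Their sum was 799 and 793 in GRHL1 cells, against 747 and 767 in empty vector cells, and the list includes ERBB3, which is described later. Fibroblast markers had 4 of 10 members above the limit on all 4 arrays (sums 4593 and 4927, against 4804 and 5174), and leukocyte markers 3 of 9 (sums 1528 and 1632, against 1566 and 1571). All arrays are from 1 established line, and what the fibroblast, glial and leukocyte markers read in it was not tested.

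The transfected gene read 9111 and 12964 units on the 2 GRHL1 arrays, against 97.9 and 123 on the 2 empty vector arrays (probe ILMN_1651286). The groups lay far apart, and GRHL1 was at least 83.0-fold higher in GRHL1 cells (limma adjusted p = 7e-06). Its 2 other probes stayed near background, with 134 and 122 units in GRHL1 cells against 117 and 131 in empty vector cells for ILMN_1769934, and 97.2 and 96.7 against 104 and 123 for ILMN_1795767. Which of the 3 probes can read the plasmid's transcript was not analysed here. Of the 6 grainyhead and CP2 family members listed, 3 passed the filter on dim probes. The other 2 were the ubiquitous CP2 factors TFCP2 (log2 difference -0.14) and UBP1 (-0.01), and neither was called. MYCN, the amplified oncogene of this line, read 26060 and 24861 units against 25723 and 24644, a log2 difference of 0.02 ± 0.09 SE (limma adjusted p = 0.984), although this probe sits at the top of the intensity scale. A second MYCN probe below the top of the scale (ILMN_1653761) read 7813 and 7868 in GRHL1 cells against 8184 and 8556 in empty vector cells. Its log2 difference was -0.09 ± 0.13 SE. Both GRHL1 arrays lay under both empty vector arrays, which held for 16.3% of all genes. The deacetylase gene HDAC3 read 1027 and 1002 against 1066 and 990.3 (-0.02 ± 0.11 SE, limma adjusted p = 0.984).

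At 24 h 47 of 12323 genes rose (0.381% of those tested) and 0 fell. At an unadjusted p under 0.05 there were 776 genes higher (6.3%) and 305 lower (2.48%), and the median log2 difference over all genes was 0.02. All 47 genes that rose had both GRHL1 arrays above both empty vector arrays, as did 21.1% of all genes tested. Of the 47, 32 were above the limit on both empty vector arrays, 3 on 1 of them and 12 on neither. In all, 10.3% of genes tested were under the limit on both empty vector arrays, and 1.17% were also above it on both GRHL1 arrays. The genes that rose were dim to moderate before GRHL1: apart from GRHL1 itself, their median was 312 units in GRHL1 cells against 192 in empty vector cells, and their brightest members reached 1847 and 860 units. The median empty vector level over all genes tested was 278 units. Among the 32 genes measured on both empty vector arrays the log2 differences ran from 0.58 to 2.09 with a median of 0.95, and 14 were at least 1.

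**Figure D1:**
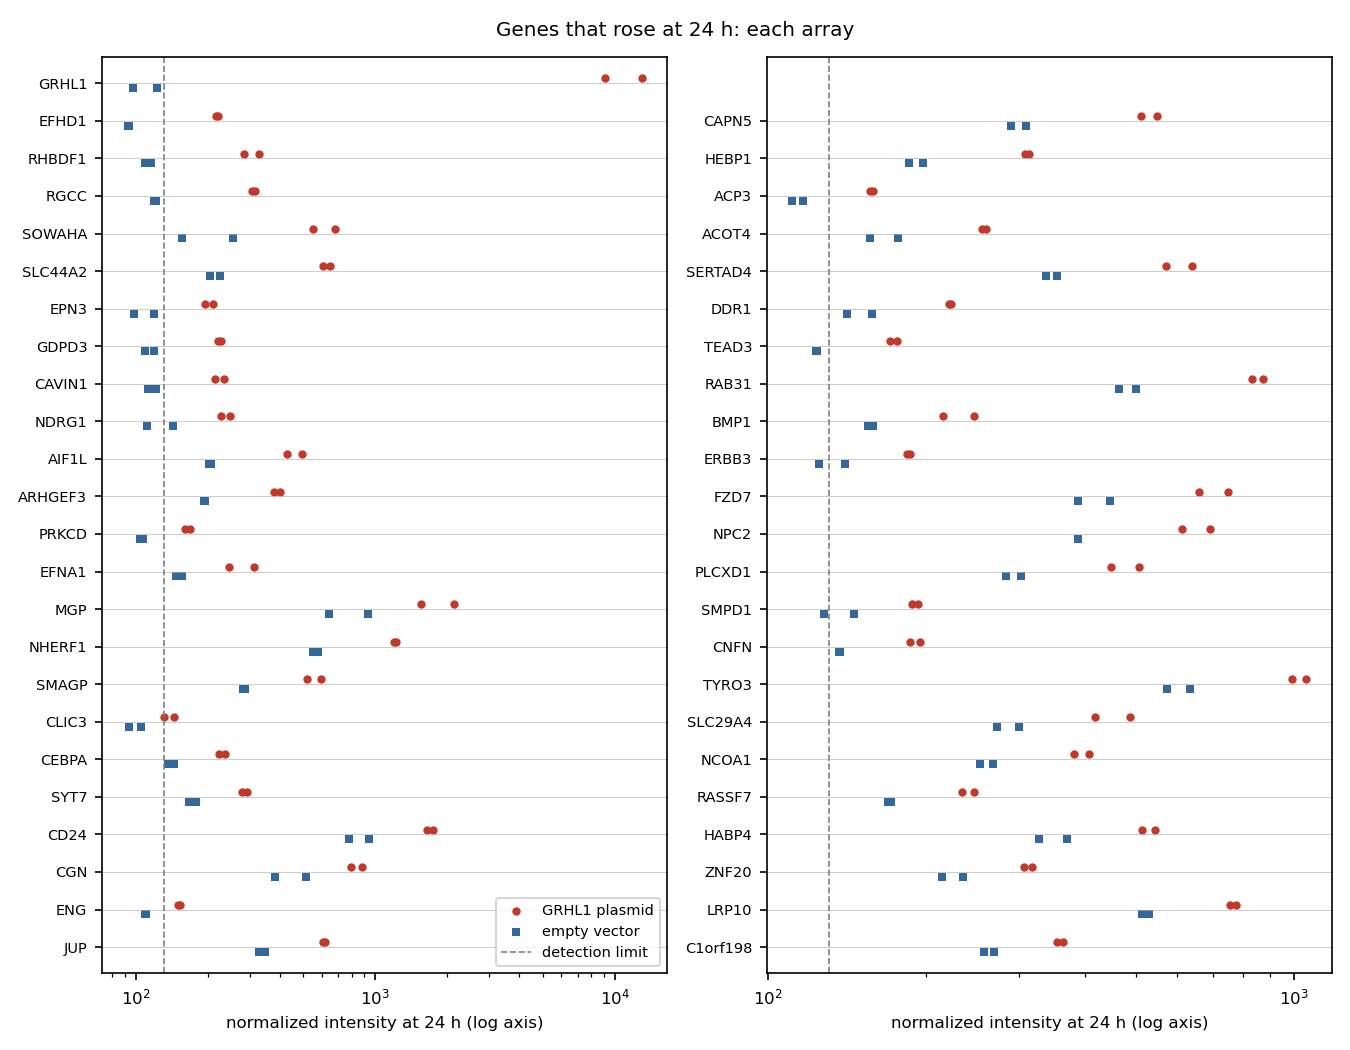
Normalized intensity (log axis) of the 47 genes that rose at 24 h, ordered by log2 difference, with a point for each of the 2 GRHL1 arrays (circles) and each of the 2 empty vector arrays (squares). The dashed line is the detection limit of 130.9 units. No gene shows overlap between the plasmids, and the empty vector points of 12 genes lie left of the limit.

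The number of calls fell whichever single array was left out, and each such fit leaves 1 array in a group and is less precise. It was 11 or 10 without GRHL1 replicate 1 or 2, and 17 or 24 without empty vector replicate 1 or 2. The 4 arrays fitted alone gave 10 calls, and taking same-numbered arrays as pairs gave 17. Of the 47 genes, 7 were called under each of these 6 fits: GRHL1, EFHD1, RHBDF1, RGCC, SLC44A2, AIF1L and ARHGEF3. NHERF1 was called under 5 of them, and 17 genes under none. With the scanner table's names for the later arrays, which widen the spread estimated over all groups, 0 genes were called, although the 24 h values themselves stay the same. Under those names the transfected gene GRHL1 was not called either (limma adjusted p = 0.533). Under the normalized table's names its log2 difference was 7.24 at 48 h and 7.25 at 72 h.

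The genes called under 5 or all 6 of these fits are described first. Most genes described after them were called neither from the 4 arrays alone nor with same-numbered arrays as pairs. RHBDF1, which encodes the inactive rhomboid iRhom1 that helps the sheddase ADAM17 mature, read 285 and 329 units in GRHL1 cells against 116 and 110 in empty vector cells. It was at least 2.34-fold higher (limma adjusted p = 7.17e-05). RGCC, a regulator of the cell cycle that binds CDK1, read 315 and 307 in GRHL1 cells against 122 and 120 in empty vector cells and was at least 2.37-fold higher (limma adjusted p = 0.000102). EFHD1, a mitochondrial calcium sensor with EF hands, read 222 and 218 against 92.7 and 94.1 and was at least 1.68-fold higher (limma adjusted p = 0.00131). The replicates of each of these 3 genes lay close together, and the empty vector arrays were at background. SLC44A2, a choline transporter-like membrane protein, read 604 and 647 units in GRHL1 cells against 226 and 205 in empty vector cells, a log2 difference of 1.92 ± 0.12 SE (limma adjusted p = 0.000102). AIF1L, an actin-binding relative of allograft inflammatory factor 1, read 494 and 429 against 203 and 207 (1.52 ± 0.12, limma adjusted p = 0.000467), and a second probe gave 0.67. ARHGEF3, an exchange factor for the GTPase RhoA, read 380 and 401 against 192 and 194 (1.37 ± 0.12, limma adjusted p = 0.00131). NHERF1, a PDZ scaffold that ties membrane proteins to ezrin and the actin cortex, read 1227 and 1200 against 548 and 579 (1.21 ± 0.10, limma adjusted p = 0.000763). These last 4 genes were measured on every array, so their sizes are values and not bounds. The sizes still depend on the background correction. Without it they were 1.54 for SLC44A2, 1.17 for AIF1L, 1.01 for ARHGEF3 and 1.11 for NHERF1.

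Since the factor binds DNA, the RefSeq promoter windows of the genes that rose were searched for its motif (assembly GRCh38.p14, 250 bases before to 50 after each annotated start, both strands). Of the 46 genes other than GRHL1, 33 matched the promoter table, with 57 windows. The full palindrome AACCGGTT was in 0 of these 33 genes, and in 0.234% of the 9809 tested genes with a window. AACCGGT, which lacks the last letter, was in 2 genes, SLC44A2 and ACOT4 (6.06%, against 1.38% of tested genes). The 6-letter part AACCGG, which both longer forms contain, was in 8 genes (24.2%, against 13% of tested genes and 8.65% of all 27305 genes in the table). By window the shares were 14% for the genes that rose and 9.71% for tested genes. The 8 genes were RGCC, SOWAHA, SLC44A2, CGN, ENG, DDR1, CD24 and ACOT4. A match is a description of these letters and not evidence of binding, and the windows leave out distant elements. The 250 bases before the start are shown for 5 of them, chosen after the values were seen: 3 of the largest rises, the tight junction gene CGN and ACOT4, which has 7 of the 8 letters. They run 5′ to 3′ on the strand of the gene, and capitals mark AACCGG or its reverse complement CCGGTT.
RGCC (chr13:41457300-41457549, plus strand): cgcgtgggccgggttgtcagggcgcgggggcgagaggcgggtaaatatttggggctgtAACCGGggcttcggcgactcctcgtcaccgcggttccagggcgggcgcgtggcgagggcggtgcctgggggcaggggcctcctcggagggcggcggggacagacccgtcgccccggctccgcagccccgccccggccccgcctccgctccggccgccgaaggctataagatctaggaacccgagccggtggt
SOWAHA (chr5:132813052-132813301, plus strand): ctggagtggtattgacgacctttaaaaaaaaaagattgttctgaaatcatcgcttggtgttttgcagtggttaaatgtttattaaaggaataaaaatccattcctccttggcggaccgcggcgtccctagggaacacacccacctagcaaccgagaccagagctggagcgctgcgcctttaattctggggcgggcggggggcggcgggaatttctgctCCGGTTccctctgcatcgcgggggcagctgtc
SLC44A2 (chr19:10625303-10625552, plus strand): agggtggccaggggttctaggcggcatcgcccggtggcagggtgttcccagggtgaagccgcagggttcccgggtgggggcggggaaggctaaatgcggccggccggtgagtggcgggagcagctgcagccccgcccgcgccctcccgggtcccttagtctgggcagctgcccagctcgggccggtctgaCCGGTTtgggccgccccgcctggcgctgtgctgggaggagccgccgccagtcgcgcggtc
CGN (chr1:151511137-151511386, plus strand): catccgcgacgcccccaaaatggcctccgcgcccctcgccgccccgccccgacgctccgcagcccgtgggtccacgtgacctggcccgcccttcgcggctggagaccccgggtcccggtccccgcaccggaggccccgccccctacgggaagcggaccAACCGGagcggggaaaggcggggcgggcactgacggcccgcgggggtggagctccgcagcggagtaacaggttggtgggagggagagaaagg
ACOT4 (chr14:73591623-73591872, plus strand): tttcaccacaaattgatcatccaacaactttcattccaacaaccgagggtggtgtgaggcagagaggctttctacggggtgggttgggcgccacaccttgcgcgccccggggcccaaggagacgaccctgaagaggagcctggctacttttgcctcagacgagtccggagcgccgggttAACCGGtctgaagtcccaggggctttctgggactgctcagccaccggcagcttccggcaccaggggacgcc
In SOWAHA the match starts 32 bases before the annotated start, in SLC44A2 60, in ACOT4 71, in CGN 92 and in RGCC 192. RHBDF1 and EFHD1 matched the table and had no match to AACCGG in their windows.

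**Figure D2:**
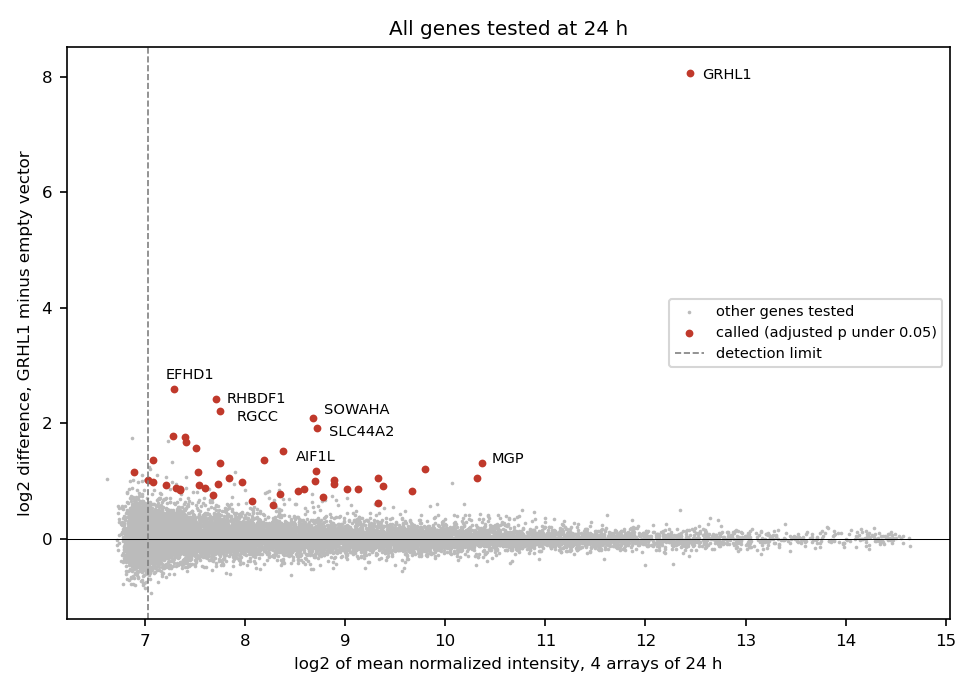
Each point is 1 of the 12323 genes tested, with the log2 of its mean normalized intensity over the 4 arrays of 24 h on the x axis and the log2 difference, GRHL1 minus empty vector, on the y axis. The 47 called genes (red) all lie above 0, and GRHL1 stands apart from them. Its height on the y axis depends on the background offset, since its empty vector arrays were at background and only the rise of at least 83.0-fold is measured.

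Genes of epithelial contacts and the cell surface were among those that rose. CGN encodes cingulin of the tight junction plaque and read 795 and 882 units in GRHL1 cells against 381 and 512 in empty vector cells (log2 difference 1.05 ± 0.16 SE, limma adjusted p = 0.0292). JUP, or plakoglobin, joins desmosomal cadherins to the plaque and read 607 and 618 against 346 and 327 (1.02 ± 0.12, limma adjusted p = 0.00594), while its 2 other probes gave 0.10 and 0.37. CNFN, which encodes the cornified envelope protein cornifelin, read 186 and 195 against 137 and 136 (0.84 ± 0.11, limma adjusted p = 0.0106). SMAGP, a small transmembrane glycoprotein of epithelial cell contacts, read 517 and 595 against 281 and 285 (1.18 ± 0.15, limma adjusted p = 0.0106), and its other probes ranged between 0.23 and 1.12. The glycosylphosphatidylinositol-anchored surface protein CD24 read 1653 and 1742 against 781 and 939 (1.05 ± 0.14, limma adjusted p = 0.011), with 0.53 from a second probe. EPN3, an epsin-type endocytic adaptor, read 195 and 211 against 98.4 and 119 and was at least 1.55-fold higher (limma adjusted p = 0.0244). CLIC3, a chloride intracellular channel family member, read 144 and 131 against 105 and 94.2, with 1 of 2 GRHL1 arrays above the limit. These values place CLIC3 nearest to background among the genes that rose.

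Several receptors and ligands rose as well, but none of the genes given here was called from the 4 arrays of 24 h alone. With same-numbered arrays as pairs, only EFNA1 and MGP among them kept the call. ERBB3, the neuregulin receptor with a weak kinase domain, read 186 and 184 units in GRHL1 cells against 125 and 140 in empty vector cells (0.88 ± 0.14 SE, limma adjusted p = 0.0312), with 0.51 from a second probe. Of its 2 empty vector readings 1 was under the limit, and the difference was 0.48 without background correction. EFNA1 encodes the Eph receptor ligand ephrin-A1 and read 311 and 247 against 156 and 147 (1.32 ± 0.17, limma adjusted p = 0.0106), with 0.59 from a second probe. The collagen-binding kinase DDR1 read 221 and 223 against 141 and 158 (0.94 ± 0.15), but a second probe gave only 0.11. The TAM-family kinase TYRO3 read 990.4 and 1055 against 573 and 635 (0.84 ± 0.13). The Wnt receptor FZD7 read 749 and 660 against 446 and 388 (0.87 ± 0.11), although its second probe gave -0.13. ENG, or endoglin, a co-receptor for TGF-beta family ligands, read 151 and 153 against 111 and 109 and was at least 1.16-fold higher. LRP10, of the low-density lipoprotein receptor family, read 755 and 777 against 514 and 530.2 (0.62 ± 0.10). Among secreted products, MGP, the calcification inhibitor matrix Gla protein, read 1554 and 2139 against 641 and 934 (1.32 ± 0.22, limma adjusted p = 0.0449), with 1.52 from a second probe. Apart from GRHL1 itself MGP was the brightest of the genes that rose, and its replicates were widely spread in both groups. BMP1, a protease that processes procollagen, read 247 and 215 against 155 and 158 (0.88 ± 0.13).

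Signalling and transcription genes made up another part of the calls. CEBPA, a transcription factor of differentiating adipose, liver and myeloid cells, read 223 and 237 units in GRHL1 cells against 137 and 145 in empty vector cells (1.16 ± 0.14 SE, limma adjusted p = 0.00634). TEAD3, a DNA-binding partner of YAP, read 176 and 171 against 123 and 124 and was at least 1.33-fold higher. The nuclear receptor coactivator NCOA1 read 382 and 407 against 253 and 268 (0.77 ± 0.13), with 0.09 from a second probe, and the zinc finger gene ZNF20 read 318 and 307 against 214 and 235 (0.65 ± 0.11). SERTAD4, of the SERTA domain family, read 570.0 and 639 against 337 and 355 (0.95 ± 0.11). HABP4, an RNA- and hyaluronan-binding protein, read 545 and 513 against 371 and 327 (0.72 ± 0.11), with 0.37 from a second probe. PRKCD encodes protein kinase C delta and read 161 and 168 against 104 and 107, at least 1.26-fold higher. The calpain protease CAPN5 read 512 and 549 against 309 and 289 (1.00 ± 0.10, limma adjusted p = 0.00352), and RASSF7, of the Ras association domain family, read 234 and 247 against 169 and 171 (0.77 ± 0.11). NDRG1, a stress-responsive gene, read 228 and 247 against 143 and 112 (1.57 ± 0.25, limma adjusted p = 0.0359), and 1 of its 2 empty vector readings was under the limit.

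The remaining calls were membrane traffic, transport, lipid and lysosomal genes and 2 genes without a well-described role. CAVIN1, a coat protein of caveolae, read 215 and 233 units in GRHL1 cells against 121 and 113 in empty vector cells and was at least 1.71-fold higher (limma adjusted p = 0.00594). The trafficking GTPase RAB31 read 873 and 832 against 501 and 466 (0.92 ± 0.11 SE), and SYT7, a calcium sensor of exocytosis, read 279 and 293 against 167 and 178 (1.06 ± 0.15), but a second SYT7 probe gave -0.45. The transporter SLC29A4, which carries monoamines and nucleosides, read 488 and 419 against 272 and 299.96 (0.82 ± 0.12). Lysosomal genes were NPC2, which binds cholesterol (691 and 613 against 389 and 388), and SMPD1, the acid sphingomyelinase (188 and 193 against 128 and 146). For SMPD1 1 of the 2 empty vector readings was under the limit, and its log2 difference was 0.86, with 0.76 from a second probe. GDPD3, a lysophospholipase D, read 220.0 and 228 against 120 and 109.7 and was at least 1.71-fold higher. The acyl-CoA thioesterase ACOT4 read 259.6 and 256 against 177 and 157, the haem-binding protein gene HEBP1 314 and 308 against 197 and 186, the acid phosphatase ACP3 159 and 157 against 117 and 111, and PLCXD1, a phospholipase C-like protein, 508 and 448 against 303 and 284. SOWAHA, an ankyrin repeat protein, read 549 and 681 against 156 and 255 (2.09 ± 0.30, limma adjusted p = 0.0222), with its 2 empty vector arrays far apart. C1orf198 read 355 and 364 against 269.5 and 258 and, at 0.58 ± 0.10, was the smallest difference called.

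Of the 47 genes, 13 had another probe that passed the filter. In 11 of these every other probe had a log2 difference above 0, as did 54.7% of all genes tested. The exceptions were SYT7 and FZD7. In the 11 genes the differences of the other probes ran from 0.09 (NCOA1) to 1.52 (MGP), so the count gives direction only and not size.

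The genes of 22 pathway and cell-type lists were then set against this background. Of the 593 genes listed 439 were tested and 8 were called, all as rises, beside 0.381% called over all genes. The other 39 of the 47 calls lay outside the lists. GRHL1 itself is among the 8, and the lists were chosen with earlier results of these data known. The counts are therefore a description and were not tested for enrichment. For comparison, 54.7% of all genes tested had a difference above 0. Several of the small list medians changed sign with the scaling of the arrays and are read only beside the median of all genes. In the epithelial junction list 1 of 12 tested members rose (CGN) and 0 fell, with a median log2 difference of 0.14 and 8 members above 0. The next smallest p values there, chosen after the values were seen, were for the epithelial repressor OVOL2, at 154 and 137 units against 110.0 and 99.3 (limma adjusted p = 0.0524), and the GTPase RAB25, at 169 and 140 against 107 and 128 (limma adjusted p = 0.241). Of 14 tested genes for desmosomes, keratins and the cornified envelope 1 rose (JUP), with a median of 0.14 and 11 members above 0. TGM1, a transglutaminase of the cornified envelope, read 168 and 160 against 103 and 127 (limma adjusted p = 0.229). Medians of both lists exceeded that of all genes under each scaling tried, as did those of several other lists. The list of apoptosis regulators was among them, with a higher median of 0.16. Only members above background on enough arrays were tested, and a member silent in empty vector cells passes that filter more easily if it is high in GRHL1 cells.

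In the list of ERBB receptors, iRhoms and ADAM sheddases 2 of 13 rose, RHBDF1 and ERBB3. The heparin-binding growth factor HBEGF, also chosen after its values were seen, read 214 and 249 against 184 and 210.4 (limma adjusted p = 0.539). Among cell cycle inhibitors and p53 targets 1 of 21 rose (RGCC), with a median of 0.02. In that list the stress sensor GADD45G read 443 and 352 against 247 and 252 (limma adjusted p = 0.0557), and SESN1, a sestrin, read 292 and 268 against 208 and 209 (limma adjusted p = 0.0571), again chosen after the values were seen. Neither passed the test. Among 28 hypoxia and glycolysis genes NDRG1 rose, and adrenomedullin (ADM), chosen after its values were seen, read 302 and 305 against 162 and 186 (limma adjusted p = 0.0615). The list's median was 0.03, near that of all genes. Of 23 actin regulators AIF1L rose, with a list median of 0.06.

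Neuronal and adrenergic lists held no call. The 27 neuronal differentiation genes had a median of -0.07 and 9 members above 0. The neurofilament genes had the smallest p values: NEFM read 4345 and 4150 units in GRHL1 cells against 5675 and 5695 in empty vector cells (-0.43 ± 0.09 SE, limma adjusted p = 0.0928), and NEFL read 591 and 655 against 815 and 833 (-0.44 ± 0.14, limma adjusted p = 0.316). In both, the 2 GRHL1 arrays lay below the 2 empty vector arrays, which held for 16.3% of all genes. The 18 adrenergic and catecholamine genes had a median of -0.01, with the receptor kinase ALK at -0.28 and the vesicular monoamine transporter SLC18A1 at -0.30 (limma adjusted p = 0.507 each). The core factors HAND2, GATA2, ISL1 and PHOX2A, chosen after the values were seen, had adjusted p values between 0.944 and 0.986. GATA3, also above the limit on all 4 arrays, was not among those chosen.

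Of 35 targets of MYC and MYCN, ribosome biogenesis genes included, 0 were called and 9 lay above 0, with a median of -0.06. POLR1B, of RNA polymerase I, read 161 and 173 against 205 and 192 (limma adjusted p = 0.217), and prothymosin gene PTMA read 1012 and 879 against 771 and 762 (limma adjusted p = 0.407). Proliferation lists stayed near the median of all genes, with 0.01 for 28 G1/S genes and 0.02 for 30 G2/M genes. The smallest p values there were for the replication factor subunit RFC2 (-0.44, limma adjusted p = 0.218) and CDC6 (-0.22), and for the spindle checkpoint kinase TTK (0.36, limma adjusted p = 0.448) and CDK1 (0.18). Apoptosis regulators had the highest list median, 0.16 over 18 members with 13 above 0 and 0 called, and their smallest p values were for the BH3-only gene PMAIP1 (0.48, limma adjusted p = 0.291) and BOK (0.37).

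The remaining lists, of stress, metabolic, innate immune, immediate early, corepressor and mesenchymal genes, had no call either. NRF2 target and glutathione genes had a median of 0.03 over 18 members, with the glutathione S-transferase GSTM3 at 224 and 199.97 units against 160 and 170.2 (0.58 ± 0.12 SE, limma adjusted p = 0.112) and GSTM1 at 1470 and 1622 against 1224 and 1215 (0.36 ± 0.10, limma adjusted p = 0.286). Their sequences are similar enough that the probes may not tell family members apart. Cholesterol and fatty acid synthesis genes had a median of 0.08 over 26 members, with the sterol reductase DHCR7 at 0.34 and the desaturase FADS2 at -0.37. Heat shock genes had 0.06 over 18, with HSPB1 at 7272 and 7179 units against 5437 and 5813 (0.37 ± 0.10, limma adjusted p = 0.244) and the co-chaperone DNAJB4 at 134 and 144 against 122 and 102. Unfolded protein response and ATF4 targets had -0.03 over 25, with ALDH1L2 at 100.4 and 121 against 149 and 134 and NUPR1 at -0.32. Plasmid DNA was given to both groups. Among 18 interferon-stimulated and DNA-sensing genes (median 0.06) IFIT1 read 108 and 116 in GRHL1 cells against 165 and 144 in empty vector cells (limma adjusted p = 0.11), and IFI35 read 124 and 132 against 162 and 145 (limma adjusted p = 0.286). NF-kB targets had a median of 0.05 over 11, and the smallest p values in these last 4 lists are given with them: NFKBIE (0.36) and CXCL1 (0.40). Immediate early genes had -0.03 over 21, with the phosphatase DUSP4 (-0.54) and the nuclear receptor NR4A2 (139 and 139 units against 121 and 126). Histone deacetylases and corepressors had 0.03 over 21, with RCOR2 (-0.31) and HDAC7 (127 and 124 units against 149 and 157). Mesenchymal genes had -0.01 over 15, with the cadherin CDH11 (320 and 486 against 187 and 304) and the repressor ZEB2 (-0.23).

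**Figure D3:**
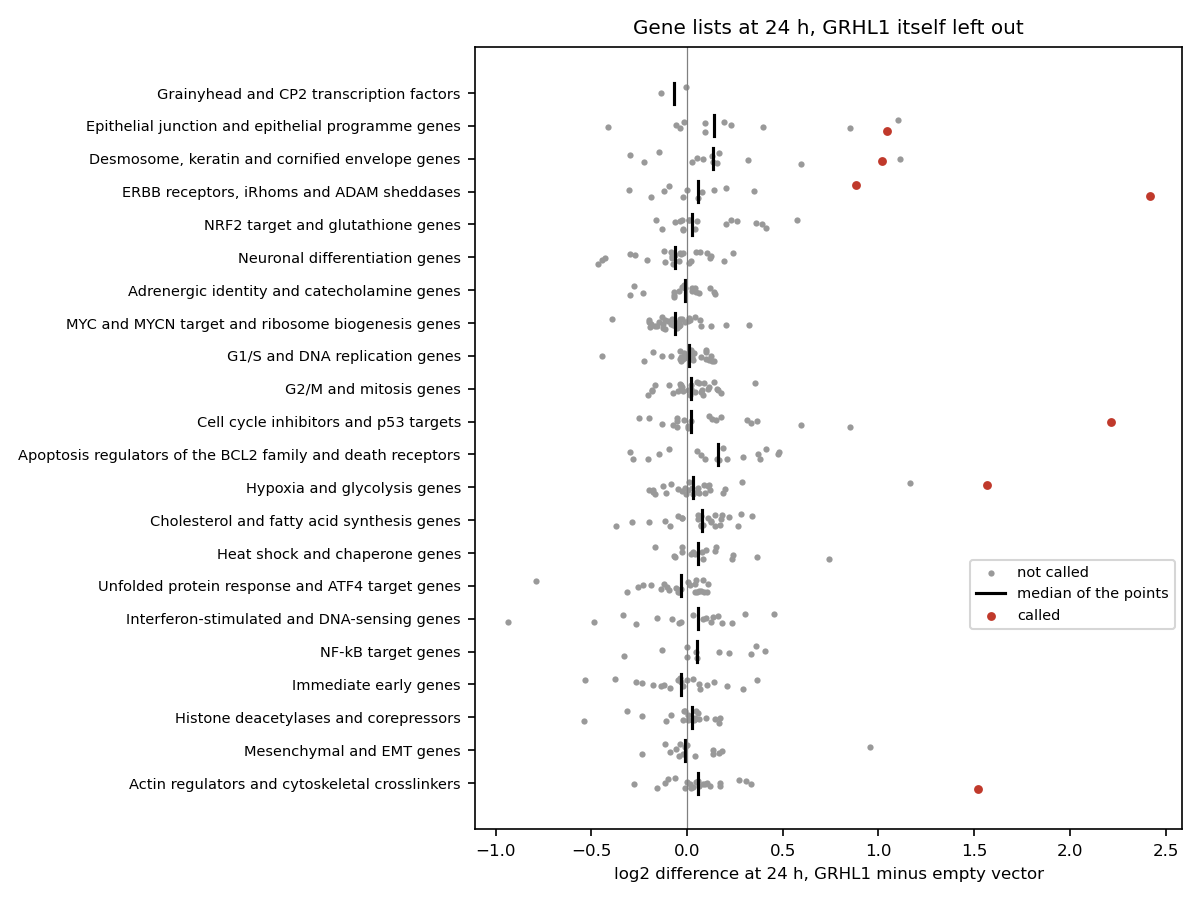
Log2 difference at 24 h, GRHL1 minus empty vector, for each tested member of the 22 lists, with called members in red, other members in grey and the median of the points as a black bar (GRHL1 left out). Red points appear in 6 lists, all right of 0, and medians lie between -0.07 and 0.16.

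No gene fell past the threshold at 24 h, and the lowest adjusted p among lower genes was 0.0639, for RPP25, a subunit of RNase P (336 and 354 units in GRHL1 cells against 478 and 451 in empty vector cells). Of genes above the limit on all 4 arrays, 189 were lower at an unadjusted p under 0.05, and the 10 with the largest log2 differences lay between -0.51 and -0.63. AMHR2, the receptor of anti-Müllerian hormone, read 182 and 204 against 256 and 257 (-0.59 ± 0.12 SE, limma adjusted p = 0.0986). RIIAD1 read 151 and 151 against 199.5 and 184 (-0.56, limma adjusted p = 0.229), and the centrosomal gene CEP170 135 and 132 against 162 and 177 (-0.61, limma adjusted p = 0.31). EIF3CL (-0.63), SREK1IP1 (-0.61), the helicase gene DHX9 (-0.55), DUSP4 (-0.54), the developmental gene MAB21L2 (-0.52) and ANAPC7, of the anaphase-promoting complex (-0.52), had adjusted p values from 0.31 to 0.539. In DHX9 the 2 GRHL1 arrays were far apart, at 544 and 715 units against 946 and 825. EIF3CL has a near-identical paralog, so its probe may not tell them apart.

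The 24 h difference was compared with the mean of the 48 and 72 h differences in the same fit. Only AIF1L passed the test (1 of 12323 genes, 0.00811%): its log2 difference was 1.52 at 24 h, 3.09 at 48 h and 3.30 at 72 h, and the 24 h value was lower than the later mean by 1.68 (-1.68 ± 0.14 SE, limma adjusted p = 0.00625). The AIF1L call was lost without GRHL1 replicate 2 (-1.56, adjusted p = 0.0592), without empty vector replicate 1 (-1.70, adjusted p = 0.0644) or 2 (-1.65, adjusted p = 0.0839), and with same-numbered arrays as pairs (adjusted p = 0.283). It was kept without GRHL1 replicate 1 (-1.79, adjusted p = 0.0189). With the scanner table's names for the later arrays the value turned to 3.23 (adjusted p = 0.599). At an unadjusted p under 0.05, 755 genes (6.13%) had a 24 h difference apart from the later mean, 557 above it and 198 below it. By the same adjusted threshold 50 genes rose at 48 h (0.406%) and 38 at 72 h (0.308%).

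Among the 32 genes that rose at 24 h and were above the limit on both empty vector arrays of that time, 24 had a later mean smaller than the 24 h value and 8 a larger one, AIF1L among the 8. Choosing genes at 24 h favours larger values at 24 h, so these counts are a description. Their median log2 difference was 0.95 at 24 h, 0.87 at 48 h and 0.63 at 72 h. SLC29A4 stood at 0.82, 0.03 and -0.11 and BMP1 at 0.88, -0.05 and 0.03 at 24, 48 and 72 h (24 h minus later 0.86 ± 0.14 SE, limma adjusted p = 0.486, and 0.89 ± 0.16, limma adjusted p = 0.489). ZNF20 stood at 0.65, 0.11 and 0.07 and DDR1 at 0.94, 0.38 and 0.08, and neither passed the test of the difference. In the other direction, CD24 stood at 1.05, 2.04 and 1.67 and MGP at 1.32, 2.17 and 2.28, again without passing. SOWAHA (2.09, 2.04 and 2.19) and ARHGEF3 (1.37, 1.32 and 1.26) were close at the 3 times. The later values rest on the sample names of the normalized table, which conflict with those of the scanner table for 7 of 12 columns, all of them at 48 or 72 h. Under the normalized table's names GRHL1 itself stood at 7.24 at 48 h and 7.25 at 72 h. Its probe ILMN_1651286 was detected on 6 of the 12 arrays.

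**Figure D4:**
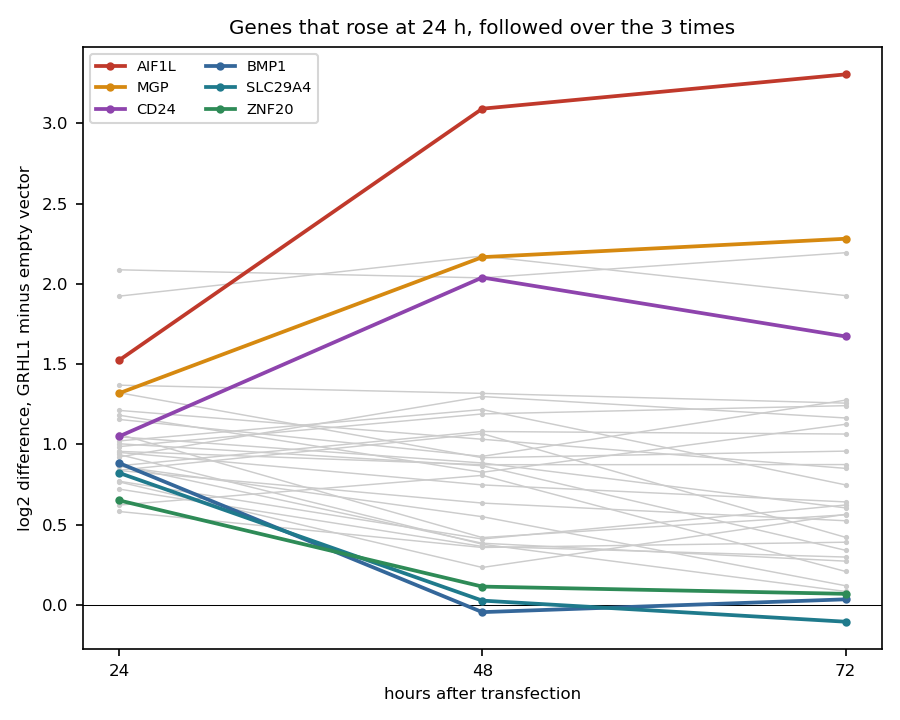
Log2 difference, GRHL1 minus empty vector, at 24, 48 and 72 h for the 32 genes that rose at 24 h and were above the limit on both empty vector arrays of 24 h, 1 line a gene. AIF1L, MGP and CD24 lie higher at 48 and 72 h than at 24 h, while SLC29A4, BMP1 and ZNF20 lie lower, and only AIF1L passed the test of that difference.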

How the data were processed

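Total RNA of BE(2)-C cells was profiled on Illumina BeadChips, with each array's group and number read from its title. The deposited tables held a scanner intensity and a detection p-value for each probe and array, per the file headers, and a normalized intensity on a linear scale, with the authors' normalization not given in the sources used here. Array medians of the normalized table ran from 119.7 to 121. Scanner and normalized columns were matched by rank correlation (at least 0.99997, next best at most 0.876), and the names agreed for all 4 arrays of 24 h.

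Detection needed a deposited p-value under 0.01 and a signal above the array's background, since 3416 to 4076 probes an array had such a p-value below background. The limit of 130.9 is the highest among the 24 h arrays of the 95th percentile of undetected probes. Normalized intensity was corrected with normexp (offset 16) and put on the log2 scale, and 1 missing value took its probe's median. Because of the probes with a low p-value below background, limma's neqc, which reads low p-values as bright probes, was not used. Of 47323 probes 30113 named 1 gene in the platform annotation, 8 several and 17202 none. Entrez identifiers of 30074 were found in RefSeq (GRCh38.p14), and 0 symbols changed. Named probes detected on at least 2 of 12 arrays were kept (16501), and the brightest stood for its gene (12323 genes).

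Tests used limma 3.58.1 in R 4.3.3 (lmFit on 6 group means, eBayes, residual degrees of freedom 6 and prior 3.72), with tables in Python 3.11.15. The analysis was tested on simulated data. The members and lists were chosen with earlier results of these data known. Named were GRHL1, MYCN, HDAC3, every called gene, the 10 largest falls among genes with unadjusted p under 0.05 and all 4 arrays above the limit, the called members of each list or else its 2 smallest p, and the called genes of the comparison with later times. Promoters were to be named where they held the full motif. None did, so the shorter matches were chosen afterwards. Same-numbered arrays deviated together with r = 0.115, 0.0172 and 0.0303 at 24, 48 and 72 h, so the numbers were not taken as pairs.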

Additional observations from a re-analysis of the deposited data

Results flagged for a closer look

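The 24 h difference of AIF1L, 1.52 on the log2 scale, lay 1.68 under the mean of its 48 and 72 h differences (-1.68 ± 0.14 SE, limma adjusted p = 0.00625). It is listed because the effect of the plasmid differed between times by a test of the difference itself. The call was lost when 1 array was left out in 3 of 4 cases (limma adjusted p from 0.0592 to 0.0839) and with same-numbered arrays as pairs (limma adjusted p = 0.283), and with the scanner table's names the value turned to 3.23 (limma adjusted p = 0.599).

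Outside the named genes, 4 of 6485 probes without a gene in the annotation were also called at 24 h when all probes were tested. ILMN_2364022 read 309 and 319 units in GRHL1 cells against 111 and 111 in empty vector cells (limma adjusted p = 0.00169), ILMN_1909886 read 298 and 318 against 127 and 149.6 (limma adjusted p = 0.0202), ILMN_1733831 read 370 and 371 against 221 and 250 (limma adjusted p = 0.0303), and ILMN_1718621 read 136 and 124 against 106 and 98.5 (limma adjusted p = 0.0486). They are listed because they carry a signal above the empty vector arrays in data that no comparison used. What they measure is not analysed here. Groups of 2 arrays are too small for a check of single outlying samples.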

How the results depend on the processing

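The count of 47 genes at 24 h (all rises) became 98 rises and 4 falls without background correction, 84 and 1 with offset 50, and 117 and 6 when limma used a variance trend with robust estimation. The total calls were then 102, 85 and 123. It was 16 without the detection filter, where 20046 genes were tested, 10 from the 4 arrays of 24 h alone, 12 from the scanner intensities of those arrays and 17 with the replicate block, and it ran from 10 to 24 when 1 array was left out, with 1 fall, without empty vector replicate 2. Quantile normalization, median centring, a stricter filter (detected on at least 4 arrays) and all probes gave 46, 38, 68 (67 rises and 1 fall) and 37. With the scanner table's sample names for the later arrays, an alternative chosen after seeing the data, 0 genes were called (874 at an unadjusted p under 0.05), and GRHL1 itself, at an unchanged 8.06, had an adjusted p of 0.533. Otherwise the fitted log2 difference of GRHL1 ran from 6.63 to 8.52 and stayed past the threshold. For the 46 other genes called, 391 recomputed values stayed past the threshold and 344 did not. Several alternatives change only the spread or the genes tested and leave the log2 values as they are.

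Called list members numbered 8, and 15 without background correction, 16 with the variance trend, 5 without the filter or with all probes, 4 from the 24 h arrays alone, from the scanner table or with the replicate block, 0 with the scanner names, and 4 to 6 with 1 array left out. The comparison with later times called 1 gene, and 7 without background correction, 6 with the variance trend, 0 with the replicate block, 0 with the scanner names, and 0 to 1 with 1 array left out. Under the scanner names the AIF1L value turned to 3.23. The cause of these shifts was not tested. Genes near 130.9 units are limited by background: a log2 difference there depends on the offset. Brighter genes can shift too, as SLC44A2 did, from 1.92 to 1.54 without background correction.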
